A study of Mus musculus with 30 samples.

Results

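The insulin-like growth factor (IGF) system was followed in the stroke-denervated cervical spinal cord through 10 genes, taken by name from the deposited table of 16995 genes. They were the ligands Igf1 and Igf2, the receptors Igf1r and Igf2r, and the binding proteins Igfbp2, Igfbp3, Igfbp4, Igfbp5, Igfbp6 and Igfbp7. All 10 were found in the table, and none had a value of 0 in any animal. The tissue was the intermediate laminae of spinal levels C5/C6 on the denervated side of adult female C57BL/6 mice (C57BL/6J in the study's methods), 2 to 3 months old, whose right sensorimotor cortex had been lesioned by photothrombotic stroke (light after injection of Rose Bengal). Tissue came from animals 4, 7, 14, 28 or 42 d post-injury (dpi), and the group labelled Ctrl was the sham-operated one, anesthetized and operated without illumination of the skull. Of 30 labelled animals, 29 had values and entered the comparisons, 4 of them at 4 dpi and 5 in each of the other groups. The labelled animal without values belongs to 4 dpi. The study chose animals for sequencing on quality scores, and left out a 4 dpi sample as an outlier in its differential expression testing. The tissue was trimmed by blade, so each value averages neurons, glia and vessels, and fewer cells of a type cannot be told apart from less RNA per cell.

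IGF1 and IGF2 are secreted growth factors that act through the tyrosine kinase receptor encoded by Igf1r, whereas the receptor encoded by Igf2r carries lysosomal enzymes and removes IGF2 by endocytosis. The binding proteins hold the ligands outside cells, extend or restrict their access to the receptor, and are released from them by proteases such as PAPP-A. In the CNS, IGF1 comes from neurons and glia, IGF2 mainly from meninges, vessels and choroid plexus, and IGF1R signalling is known for roles in neuronal survival, axon growth and myelination.

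Values are those deposited as normalized CPM, abundance estimates scaled between libraries whose columns do not share 1 sum, and differences are on the log2(value + 0.5) scale with their SE. A gene was called when its adjusted p in the limma fit over all 6 groups was under 0.05. Before the results, 1 feature of the libraries has to be stated. The 18S ribosomal RNA gene Rn18s-rs5 lay between 30321 and 52929 in the 5 sham animals, but was above 200000 in 2 animals at 14 dpi, 4 at 28 dpi and 2 at 42 dpi, so that the column sums ranged from 714597 to 2256910 while the column medians stayed between 10.2 and 11.2. At 28 dpi only animal A4-1, at 44755, was within the sham range of Rn18s-rs5. Neuronal, astrocytic and oligodendrocyte markers were present in all animals, in sums over the marker lists of at least 5050, 2626 and 4695. Of the 7 pituitary markers 4 had a row, and their sum ran from 2.5 to 4.3 in sham animals and up to 31.3 at 7 dpi. Of the 6 choroid plexus markers Ttr, Folr1 and Otx2 had no row, and the 3 others summed to 3.7 to 8.2 in any animal.

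In relation to exon length, the binding proteins Igfbp2 and Igfbp7 and the receptor Igf2r had the highest levels of the 10, and the ligands were among the lowest. The mean over 29 animals was 13.4 CPM per kb of exon for Igfbp2 (range 9.04 to 20.7), 7.06 for Igfbp7, 6.34 for Igf2r, 5.13 for Igfbp4 and 4.03 for Igf1r. The mean was 2.24 for Igfbp5, 1.32 for Igfbp3, 1.06 for Igf2, 0.816 for Igfbp6 and 0.58 for Igf1. Igfbp2 was above Igfbp7 in 29 of 29 animals and Igf1r above Igfbp5 in 29 of 29, whereas neighbours such as Igfbp7 and Igf2r (20 of 29) or Igf2 and Igfbp6 (23 of 29) did not keep their order. Without regard to length, the means were 67.7 CPM for Igf1r and 59.0 for Igf2r, higher than 88.2% and 86.1% of all genes, and 5.74 for Igf1, 6.09 for Igf2 and 4.14 for Igfbp3. Igfbp6 was near the bottom of the table, at 0.4 to 2.7 CPM, where the rounding step of 0.1 is a large part of a value.

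**Figure D1:**
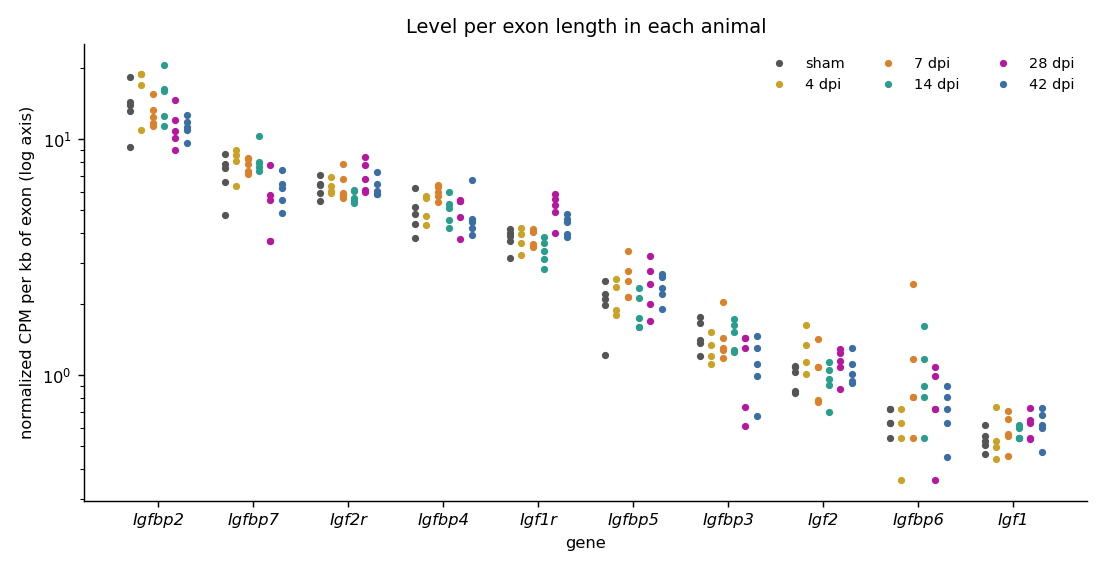
Level of each gene in each animal, in normalized CPM per kb of exon on a log axis, with genes in order of their mean and 1 point per animal coloured by group. Igfbp2 (9.04 to 20.7) lies above Igfbp7 in every animal, and Igf1 (0.444 to 0.737) has the lowest mean.

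Among the ligands, the mRNA of Igf1 stayed near its sham level. Igf1 is encoded on the forward strand of chromosome 10 (mm10 chr10:87858265-87937042). It was at 5.0, 6.1, 4.6, 5.5 and 5.2 CPM in sham animals and at 6.2, 6.4, 5.3, 5.4 and 7.2 at 28 dpi. The groups overlapped, and the largest of its 5 differences from sham was 0.189 at 28 dpi (95% confidence interval -0.067 to 0.445, limma, adjusted p = 0.27). The interval allows a rise of up to 0.45 on the log2 scale, so a moderate change in Igf1 was not detectable with this spread.

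Igf2, at chr7:142650766-142666816 on the reverse strand, had its highest mean at 4 dpi. It was at 4.9, 5.9, 6.3, 6.2 and 4.8 CPM in sham animals and at 9.3, 5.8, 7.7 and 6.5 at 4 dpi. At 4 dpi 3 of 4 animals were above the sham range, with a log2 difference of 0.34 ± 0.16 (SE) that did not pass the adjustment (limma adjusted p = 0.922). From 7 dpi on its means were 5.88, 5.44, 6.46 and 6.08 CPM, each within the range of the sham animals or just above it. Of its exon length, 62.83% is shared with the same-strand gene model Gm49394, which has no row in the table, so reads of both cannot be separated with confidence.

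Igf1r was the member with the clearest change, and its change was late. The gene lies on the forward strand of chromosome 7 (ENSMUSG00000005533, chr7:67952827-68233668, 21 exon blocks of 16791 bases in all). Its values were 70.0, 65.5, 52.8, 67.4 and 61.9 CPM in sham animals. They were 54.6, 70.8, 66.5 and 60.9 at 4 dpi and 68.1, 59.1, 70.1, 58.9 and 60.2 at 7 dpi. In the first week the values thus stayed almost entirely inside the sham range. At 14 dpi they were 56.2, 61.1, 52.1, 47.5 and 64.5 CPM. At 28 dpi they were 67.0, 98.3, 82.9, 94.0 and 88.3 and at 42 dpi 75.1, 64.9, 81.2, 66.5 and 77.0. The lowest value at 28 dpi was above the highest at 14 dpi, and 4 of 5 animals at 28 dpi were above the sham range.

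Compared with sham, Igf1r was higher at 28 dpi, with a log2 difference of 0.43 ± 0.097 (34.7%, limma adjusted p = 0.00337), although the direction turned to -0.355 when every column was rescaled to the same sum, which moved the median of all genes by -0.72. Relative to that median Igf1r was still 0.37 higher. The columns were also rescaled to the same sum without 7 ribosomal RNA genes, which moved the median of all genes by -0.086. The difference was then 0.337 (limma adjusted p = 0.0103). After correction for gene length and GC content the difference was 0.215 (adjusted p = 0.0168). With the Rn18s-rs5 value as a covariate the difference was 0.317 (adjusted p = 0.125), and with the 8 animals above 200000 left out, which leaves A4-1 alone at 28 dpi and assumes that it varies like the other groups, it was 0.388 (adjusted p = 0.225). Animal A4-1, the one with little Rn18s-rs5, had 82.9 CPM of Igf1r, above each sham animal.

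From 14 to 28 dpi Igf1r rose, with a log2 difference of 0.61 ± 0.097 (52.1%, limma adjusted p = 4.16e-05). Of the 10 genes it alone had no overlap between these groups, a state found in 22.0% of all genes tested. This step held with Rn18s-rs5 as a covariate (0.566, adjusted p = 0.000145), but not after rescaling to the same sum (0.342, adjusted p = 0.43). Rescaled without ribosomal RNA genes it was 0.563 (adjusted p = 0.000105), and after correction for gene length and GC content 0.274 (adjusted p = 0.00146). With the 8 animals left out it was 0.673, where A4-1 alone stands for 28 dpi. From 28 to 42 dpi Igf1r was lower by 0.231 (limma adjusted p = 0.166), and at 42 dpi it was 0.199 above sham (95% confidence interval 0.001 to 0.398, adjusted p = 0.336). Without A3-1, the lowest of the 28 dpi animals, the step from 28 to 42 dpi was called. With all animals neither difference passed the adjustment, so the level at 42 dpi could not be placed apart from sham or from 28 dpi.

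**Figure D2:**
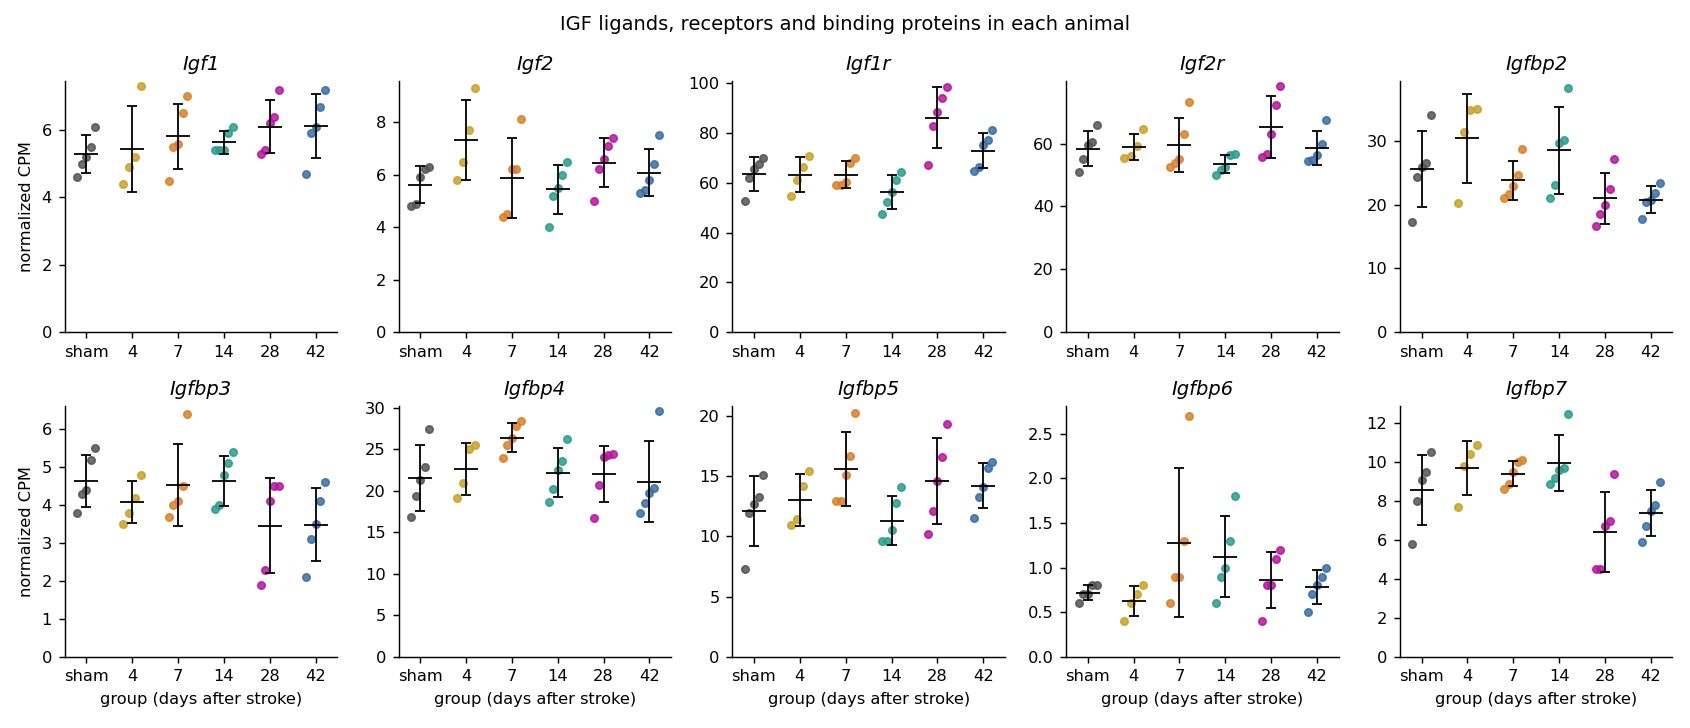
Normalized CPM of the 10 genes in each animal (points) with the mean and SD of each group (bars), by days after stroke, on linear axes that start at 0. Igf1r at 28 dpi (67.0 to 98.3) lies above 14 dpi (47.5 to 64.5), and Igfbp7 is at 4.5 in 2 animals at 28 dpi, below each sham animal.

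Igf2r, on the reverse strand of chromosome 17 (ENSMUSG00000023830, chr17:12682406-12769664), moved less. It was at 65.8, 59.6, 60.4, 55.1 and 51.1 CPM in sham animals, at 50.0, 52.6, 56.4, 51.6 and 56.8 at 14 dpi, and at 56.8, 63.1, 55.7, 78.5 and 72.2 at 28 dpi. The 14 dpi animals were tightly grouped at the low end of the sham range, with 1 of 5 below it, and the 28 dpi animals spread upward from it. From 14 to 28 dpi the difference was 0.27 ± 0.091 (20.9%, limma adjusted p = 0.0164), whereas 28 dpi against sham gave 0.151 (adjusted p = 0.222), which turned to -0.632 when the columns were rescaled to the same sum. The step from 14 to 28 dpi was 0.253 (adjusted p = 0.0346) with Rn18s-rs5 as a covariate. It was 0.011 (adjusted p = 0.984) after rescaling to the same sum and 0.232 (adjusted p = 0.0368) after rescaling without ribosomal RNA genes. After correction for gene length and GC content it was 0.097 (adjusted p = 0.364). The call was also lost without A4-3 (0.204, adjusted p = 0.0748) or A4-4 (0.234, adjusted p = 0.0525). With the 8 animals of high Rn18s-rs5 left out the step was 0.082, where A4-1 alone stands for 28 dpi. Airn, the long noncoding RNA transcribed across Igf2r from the opposite strand, shares no exon bases with it. Airn was at 3.3 to 4.8 CPM in sham animals and at 5.4 to 8.5 at 28 dpi, a rise of 0.54 ± 0.15 with no overlap (adjusted p = 0.00941), at a time when 24.9% of all genes were called and 9.90% had no overlap. The difference was 0.466 (adjusted p = 0.142) with Rn18s-rs5 as a covariate, 0.567 (adjusted p = 0.314) without the 8 animals and -0.172 (adjusted p = 0.577) after rescaling to the same sum, around the all-gene median of -0.725. Airn is named here because it overlaps Igf2r. The library kit does not mark strand, so unspliced RNA of one gene within the exons of the other could not be told apart from it.

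Of the binding proteins, Igfbp7 was the one called against sham. It binds IGFs weakly and is an extracellular matrix protein of vessels. The gene is on the reverse strand of chromosome 5 (ENSMUSG00000036256, chr5:77349240-77408041), and 85 bases of its exons (7.03%) overlap Polr2b on the other strand. It was at 5.8, 8.0, 10.5, 9.5 and 9.1 CPM in sham animals, at 9.2, 9.6, 9.7, 8.9 and 12.5 at 14 dpi, and at 7.0, 6.7, 9.4, 4.5 and 4.5 at 28 dpi. It was at 9.8, 7.7, 10.9 and 10.4 at 4 dpi, at 8.6 to 10.1 at 7 dpi and at 5.9 to 9.0 at 42 dpi. At 28 dpi 2 of 5 animals were below the sham range and the others were inside it.

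Against sham the difference of Igfbp7 at 28 dpi was -0.42 ± 0.16 (limma adjusted p = 0.0496), close to the threshold. The call was lost when any of 7 of the 10 animals was left out in turn (sham A11-4, A12-1, A12-2 and A12-3, and A3-3, A4-3 and A4-4 at 28 dpi, with differences of -0.443 to -0.311 and adjusted p of 0.0619 to 0.161) and with Rn18s-rs5 as a covariate (-0.367, adjusted p = 0.269). With the 8 animals of high Rn18s-rs5 left out it turned to 0.15 (adjusted p = 0.803), since A4-1 had 9.4 CPM. From 14 to 28 dpi Igfbp7 fell, with a log2 difference of -0.64 ± 0.16 (adjusted p = 0.00172), with 4 of 5 animals below the 14 dpi range, and this step was -0.621 (adjusted p = 0.00384) with Rn18s-rs5 as a covariate and 0.02 (adjusted p = 0.967) without those 8 animals, where A4-1 alone stands for 28 dpi. Levels of Igfbp7 in the 4 animals at 28 dpi with high Rn18s-rs5 were 4.5 to 7.0 CPM. Within groups, over all 29 animals, Igfbp7 and Rn18s-rs5 had a Pearson r of -0.082 (permutation p = 0.732, adjusted p = 0.842, r = -0.001 without the 2 most distant animals) and a Spearman rho of 0.041 (permutation p = 0.852, adjusted p = 0.955). At 14 dpi the animal with the highest Rn18s-rs5, A6-3, also had the highest Igfbp7, 12.5 CPM, a single value that stood apart from its group. With 4 of 5 animals high in Rn18s-rs5 at 28 dpi, time after stroke and ribosomal RNA content cannot be told apart there.

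**Figure D3:**
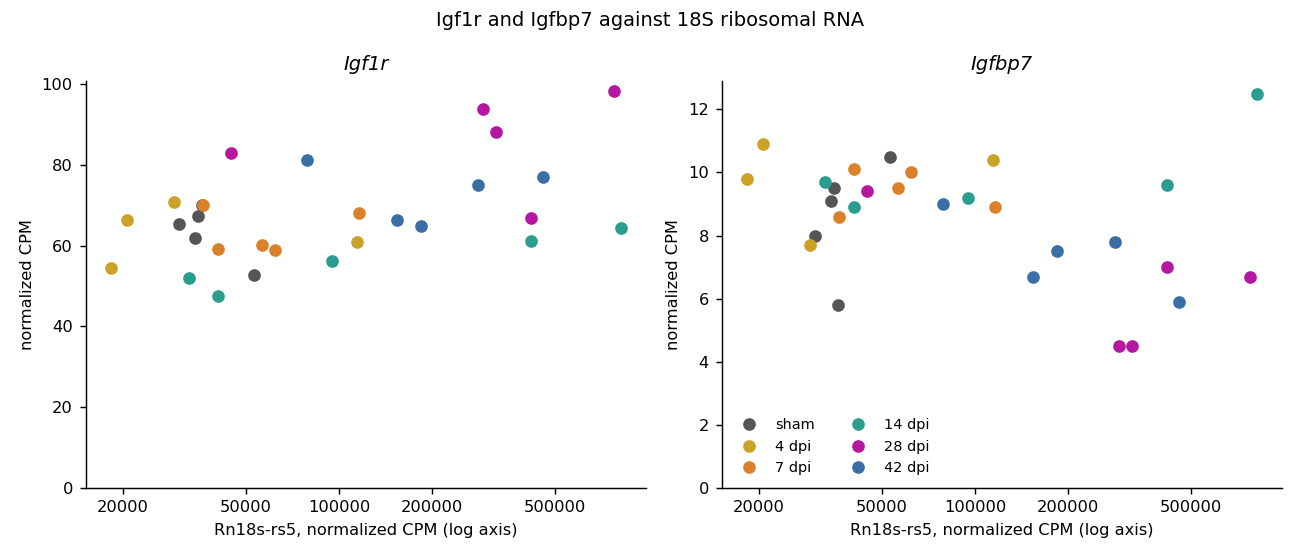
Igf1r (left) and Igfbp7 (right) in normalized CPM against Rn18s-rs5 on a log axis, 1 point per animal coloured by group. At 28 dpi the animal with Rn18s-rs5 in the sham range (44755) has Igf1r at 82.9, above the sham animals, and Igfbp7 at 9.4, within their range.

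Igfbp2, the most abundant binding protein per length and one of the main IGF binding proteins of the CNS, was lower at 28 than at 14 dpi. The gene is on chromosome 1 (ENSMUSG00000039323, chr1:72824503-72852474, forward strand), 5457 bases from the end of Igfbp5, which is read toward it. It was at 17.2, 25.9, 34.0, 26.6 and 24.4 CPM in sham animals, at 23.0, 30.2, 38.3, 21.1 and 29.7 at 14 dpi, and at 22.4, 18.6, 27.1, 20.0 and 16.7 at 28 dpi. The 28 dpi values lay in the lower part of the sham range, apart from 27.1 in A4-1 and 16.7 in A4-4, which was just below it. The step from 14 to 28 dpi was -0.42 ± 0.16 (limma adjusted p = 0.0345), and the differences from sham were -0.271 at 28 dpi (adjusted p = 0.213) and -0.265 at 42 dpi (adjusted p = 0.467). The step lost its call when any of 6 of the 10 animals was left out in turn (A5-3, A5-4 and A6-3 at 14 dpi, A3-3, A4-3 and A4-4 at 28 dpi, with differences of -0.409 to -0.307 and adjusted p of 0.0618 to 0.135) and with quantile normalization (-0.36, adjusted p = 0.0597), and was 0.031 (adjusted p = 0.964) without the 8 animals of high Rn18s-rs5. With Rn18s-rs5 as a covariate it was -0.416 (adjusted p = 0.0498). After rescaling to the same sum the step was -0.675 (adjusted p = 0.12), and without ribosomal RNA genes in that sum -0.461 (adjusted p = 0.025). The difference from sham at 28 dpi became -1.04 (adjusted p = 0.00126, around an all-gene median of -0.725) and -0.362 (adjusted p = 0.0934) in these 2 settings.

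Igfbp3, which carries most IGF in serum and is low in this tissue (chr11:7206086-7213923, reverse strand), was at 3.8, 4.3, 5.2, 4.4 and 5.5 CPM in sham animals. It was at 4.5, 1.9, 4.1, 2.3 and 4.5 at 28 dpi and at 3.5, 4.6, 3.1, 4.1 and 2.1 at 42 dpi. At both times single animals fell below the sham range (2 of 5 and 3 of 5) and the rest did not. The differences of -0.43 ± 0.19 at 28 dpi (limma adjusted p = 0.0894) and -0.395 at 42 dpi (adjusted p = 0.324) did not pass the adjustment. Without animal A3-1 the difference at 28 dpi was -0.533 (adjusted p = 0.0401), without A3-3 it was -0.268 (adjusted p = 0.317), and with Rn18s-rs5 as a covariate it was -0.252 (adjusted p = 0.536). After rescaling to the same sum it was -1.101 (adjusted p = 0.0012), around an all-gene median of -0.725. Rescaled without ribosomal RNA genes it was -0.512 (adjusted p = 0.0578).

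Igfbp4 and Igfbp5, binding proteins that PAPP-A and related proteases cut, had their highest means at 7 dpi. Igfbp4 (chr11:99041244-99054392, forward strand) was at 16.9, 21.3, 19.4, 27.5 and 22.9 CPM in sham animals and at 27.8, 24.0, 26.4, 28.4 and 25.5 at 7 dpi. Igfbp5 (chr1:72857932-72874884, reverse strand) was at 15.1, 13.3, 7.3, 12.7 and 11.9 in sham animals and at 15.1, 16.7, 12.9, 20.2 and 12.9 at 7 dpi. In both genes the 7 dpi animals were in the upper part of the sham range or above it, with 2 of 5 above. The differences of 0.301 for Igfbp4 (limma adjusted p = 0.834) and 0.372 for Igfbp5 (adjusted p = 0.84) did not pass the adjustment. By 14 dpi Igfbp5 was at 14.1, 10.5, 9.6, 12.8 and 9.6 CPM, 0.439 below 7 dpi on the log2 scale (limma adjusted p = 0.748).

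Igfbp6, which prefers IGF2 (chr15:102144362-102149511, forward strand), was at 0.6 to 0.8 CPM in sham animals. At 7 dpi it was at 0.6, 0.9, 0.9, 2.7 and 1.3 and at 14 dpi at 1.8, 1.3, 0.9, 1.0 and 0.6. At each of these times 4 of 5 animals were above the sham range, but by amounts of a few rounding steps in all but some animals. The differences from sham were 0.443 (limma adjusted p = 0.856) and 0.367 (adjusted p = 0.514), and the first was 0.205 without A8-1, the animal with 2.7 CPM.

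Counted over time, members were called against sham at 28 dpi only, and there no more often than other genes. At 4 dpi 0 of 10 were called (0.106% of all genes were), at 7 dpi 0 of 10 (0.0294%), at 14 dpi 0 of 10 (0.00588%) and at 42 dpi 0 of 10 (0.0235%). At 28 dpi 2 of 10 were called, Igf1r upward and Igfbp7 downward, against 24.9% of all genes, a share near that of the members. With an unadjusted p under 0.05 in the same limma fit there was 1 member at 4 dpi (Igf2), 2 at 7 dpi (Igfbp4 and Igfbp5), 0 at 14 dpi, 3 at 28 dpi (Igf1r, Igfbp3 and Igfbp7) and 2 at 42 dpi (Igf1r and Igfbp3). Of all 16995 genes 874, 992, 1973, 6548 and 2507 had such a p, in the order of the time points. No member was free of overlap with sham at any time, whereas 1.70%, 0.971%, 2.07%, 9.90% and 3.31% of all genes were, in the order of the time points. The median difference of the 10 members at 28 dpi was 0.138 and that of all genes -0.005.

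**Figure D4:**
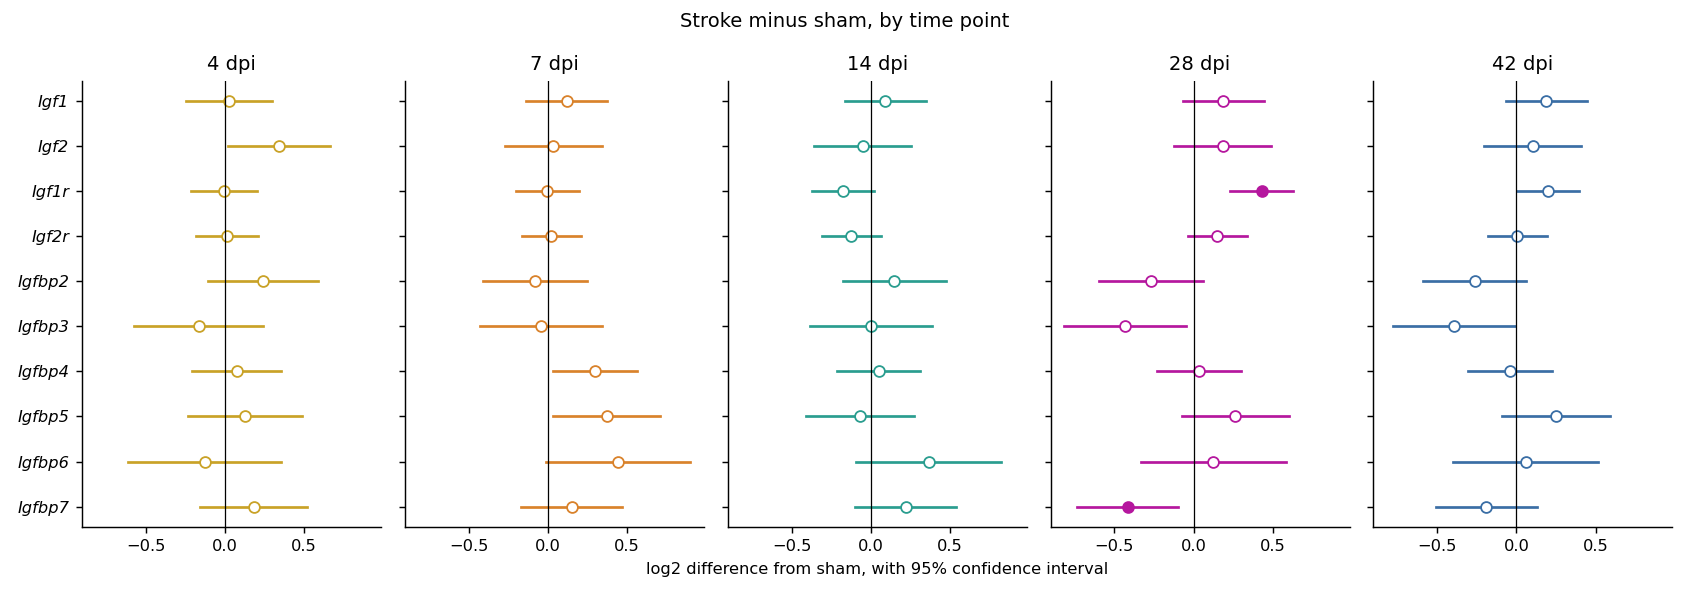
Log2 difference of each gene from sham at each time point (x axis, limma estimate with 95% confidence interval), with filled points for adjusted p under 0.05. At 28 dpi Igf1r (0.430) and Igfbp7 (-0.416) are filled, and after rescaling of the columns to the same sum these become -0.355 and -1.145 around an all-gene median of -0.725. Rescaled without ribosomal RNA genes they are 0.337 and -0.503.

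Between neighbouring time points, calls appeared from 14 to 28 dpi. There 4 of 10 members were called, Igf1r and Igf2r upward and Igfbp2 and Igfbp7 downward, against 43.0% of all genes, so here too the members' share was near that of the table. From 4 to 7 dpi and from 7 to 14 dpi 0 of 10 were called, as were 0% of all genes, with 1 member each at an unadjusted p under 0.05 (Igfbp6 and Igfbp5). From 28 to 42 dpi 0 of 10 were called against 1.94% of all genes, with 1 member, Igf1r, at an unadjusted p under 0.05. Of all 16995 genes 495 had such a limma p from 4 to 7 dpi, 1010 from 7 to 14 dpi and 3583 from 28 to 42 dpi. Over all 6 groups the F test called Igf1r (adjusted p = 0.000726) and Igfbp7 (adjusted p = 0.0107), 2 of 10 against 31.6% of all genes. Of the 4 members called in the step from 14 to 28 dpi, the receptors that rose have 16.8 and 9.31 kb of exon and the binding proteins that fell have 1.85 and 1.21 kb. After correction for gene length and GC content Igf1r (0.274, adjusted p = 0.00146) and Igfbp7 (-0.48, adjusted p = 0.00354) were still called, and Igf2r and Igfbp2 were not.

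The promoters of these 4 genes are shown because they were the members called from 14 to 28 dpi, a step in which 43.0% of all genes were called. Whether the 4 share any control was not tested. Each line holds the 250 bases before the RefSeq start site, 5′ to 3′ on the gene's strand (RefSeq, GRCm38.p6), with the GC box GGGCGG or its reverse complement CCGCCC in capitals. The stretches are chr7:67952007-67952256 (forward strand) for Igf1r, chr17:12769707-12769956 (reverse) for Igf2r, chr1:72824230-72824479 (forward) for the upstream of 2 Igfbp2 entries, and chr5:77408046-77408295 (reverse) for Igfbp7.
Igf1r: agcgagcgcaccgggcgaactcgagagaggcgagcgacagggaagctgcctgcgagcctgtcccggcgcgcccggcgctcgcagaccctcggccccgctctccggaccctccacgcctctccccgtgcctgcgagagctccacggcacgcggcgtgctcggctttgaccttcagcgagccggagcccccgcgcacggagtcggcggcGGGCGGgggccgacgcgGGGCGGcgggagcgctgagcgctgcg
Igf2r: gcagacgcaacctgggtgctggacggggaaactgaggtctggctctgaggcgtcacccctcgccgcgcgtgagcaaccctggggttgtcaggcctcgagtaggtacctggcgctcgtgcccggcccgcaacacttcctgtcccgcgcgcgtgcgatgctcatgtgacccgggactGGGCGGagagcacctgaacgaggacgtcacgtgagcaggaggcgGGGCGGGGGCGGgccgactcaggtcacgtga
Igfbp2: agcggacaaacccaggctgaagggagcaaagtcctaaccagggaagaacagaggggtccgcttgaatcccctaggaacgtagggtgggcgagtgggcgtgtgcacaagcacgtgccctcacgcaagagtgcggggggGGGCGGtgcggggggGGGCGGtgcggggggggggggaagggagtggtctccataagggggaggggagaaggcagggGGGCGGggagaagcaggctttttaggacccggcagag
Igfbp7: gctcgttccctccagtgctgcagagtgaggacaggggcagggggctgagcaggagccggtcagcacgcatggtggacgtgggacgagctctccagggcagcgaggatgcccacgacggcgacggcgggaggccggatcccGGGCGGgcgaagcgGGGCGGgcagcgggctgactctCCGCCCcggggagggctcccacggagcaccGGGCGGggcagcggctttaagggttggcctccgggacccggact

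The GC box was present in the 4 stretches shown, with 2 copies before Igf1r, 3 before Igf2r, 3 before Igfbp2 and 4 before Igfbp7, and with 2 of the Igf2r copies side by side. The second Igfbp2 entry had 0 copies. It is found on either strand in 32.7% of 32851 mouse promoter stretches of the same length. The sequence TATAAA, found in 12.4% of them on either strand, was in none of the 4 and was in the stretches of Igfbp4 and Igfbp6. The Igf1r stretch had 42 CG dinucleotides, more than 99.1% of all stretches, and the Igf2r and Igfbp7 stretches had 27 and 26, against a median of 6. The Igfbp2 entries had 14 and 11.

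The other genes of the IGF and insulin families were measured next to the members, and 5 of 12 listed had a row. Of these 5, 4 rose at 28 dpi and 0 fell, where 24.9% of all genes were called in either direction, with a median difference of 0.453, although rescaling the columns to the same sum turned the directions of Insr (-0.371) and Igf2bp3 (-0.276) and left Insrr at 0.19 (adjusted p = 0.535). Insr, the insulin receptor and closest relative of Igf1r, was at 68.2 ± 7.12 CPM (SD, n = 5) at 28 dpi and 51.3 ± 6.65 (SD, n = 5) in sham animals, a difference of 0.41 ± 0.077 on the log2 scale (limma adjusted p = 0.00145) with no overlap. Insrr, the insulin receptor-related receptor, was at 1.6 against 0.78 CPM (0.719, adjusted p = 0.00369). The RNA-binding proteins Igf2bp1 (0.82, adjusted p = 0.0155) and Igf2bp3 (0.453, adjusted p = 0.0104) were also higher, at 1.42 against 0.56 CPM and 7.7 against 5.48 CPM. Insrr (0.6 to 1.9 CPM over all animals) and Igf2bp1 (0.2 to 2.9) are low, where the rounding step of 0.1 is a large part of a value. The difference of Igf2bp1 was 0.597 with a pseudocount of 1 and 1.33 with a pseudocount of 0.05. With the 8 animals of high Rn18s-rs5 left out none of the 4 was called, with differences of 0.26 for Insr, 0.791 for Insrr, 0.363 for Igf2bp1 and 0.332 for Igf2bp3. The calls of Insr, Insrr and Igf2bp3 held when each animal was left out in turn, but none of the 4 was called with Rn18s-rs5 as a covariate. The call of Igf2bp1 (0.425, adjusted p = 0.373, with that covariate) was also lost after rescaling to the same sum (0.333, adjusted p = 0.271), with only the 2 groups compared (adjusted p = 0.0754), and without sham A12-3 (0.688, adjusted p = 0.0541) or A3-3 at 28 dpi (0.588, adjusted p = 0.0759).

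Among 31 genes of IGF1R signalling, 5 rose and 1 fell at 28 dpi, against 24.9% of all genes called in either direction, with a median of 0.03 over the list. Those that rose were Rptor (0.296, limma adjusted p = 0.00579), Tsc2 (0.3, adjusted p = 0.00673), Gsk3b (0.285, adjusted p = 0.0162), Sos1 (0.279, adjusted p = 0.0309) and Irs2 (0.223, adjusted p = 0.0353), and each of these turned negative (-0.488, -0.485, -0.503, -0.507 and -0.561) when the columns were rescaled to the same sum. Rptor and Tsc2 encode a subunit and an inhibitor of mTORC1 signalling, Sos1 and Irs2 link the receptor to Ras and to PI3K, and Gsk3b is a kinase held in check by Akt. Rheb, the GTPase that activates mTORC1, was lower (-0.31, adjusted p = 0.026). None of these 6 was called with the 8 animals of high Rn18s-rs5 left out or with Rn18s-rs5 as a covariate, and after correction for gene length and GC content Tsc2 and Rheb were called and the other 4 were not. Rptor and Tsc2 kept their calls when each of the 10 animals was left out in turn, whereas Gsk3b lost its call in 2 of these 10 fits (adjusted p up to 0.0645, without sham A12-1 or A3-3), Sos1 in 5 (up to 0.104), Rheb in 5 (up to 0.126) and Irs2 in 6 (up to 0.125). From 14 to 28 dpi 10 of the 31 rose and 4 fell, against 43.0% of all genes called. At 4, 7, 14 and 42 dpi the same fit called 0 against sham, with 1, 0, 3 and 5 genes at an unadjusted p under 0.05. Of all 16995 genes 874, 992, 1973 and 2507 had such a p at these times.

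None of the 10 genes for IGFBP proteases and their inhibitors was called by limma against sham at any time, and 5 of their 50 comparisons had an unadjusted p under 0.05. At 28 dpi 24.9% of all genes were called, and at the other times 0.106% or fewer. The most abundant were the protease genes Ctsd (193.4 CPM at 28 dpi, 205.6 in sham, adjusted p = 0.558) and Htra1 (122.3 and 143.3 CPM, adjusted p = 0.178), both of which were called as lower after rescaling to the same sum (-0.888 and -1.008, around an all-gene median of -0.725). In the step from 14 to 28 dpi 2 of the 10 were higher and 1 lower, against 43.0% of all genes called. They were Adam12 (3.72 to 5.22 CPM, limma adjusted p = 0.00566), Mmp14 (6.94 to 9.86 CPM, adjusted p = 0.034) and, downward, Ctsd (257.2 to 193.4 CPM, -0.419, adjusted p = 0.00514), chosen after their values were seen, as the 3 called in that step. Of 7 genes of the growth hormone axis with a row, 1 was called, Socs2, a growth hormone-induced inhibitor of that pathway, at 7.92 against 5.94 CPM at 28 dpi (0.374, limma adjusted p = 0.0395), which turned to -0.36 on rescaling to the same sum. This 1 of 7 stands against 24.9% of all genes called at that time. Its call was lost in 7 of 10 fits that left out 1 animal (adjusted p up to 0.15). At 4, 7, 14 and 42 dpi limma called 0 of the 7 genes, with 2, 1, 0 and 2 at an unadjusted p under 0.05. Of all 16995 genes 874, 992, 1973 and 2507 had such a p at these times, and 6548 at 28 dpi.

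Markers of other cells moved over the same times. At 28 dpi, when 24.9% of all genes were called against sham, 6 of 8 oligodendrocyte markers were lower and 0 higher (summed level 4695 to 6848 CPM against 6509 to 9647). At 4, 7 and 42 dpi all 8 differences were negative, with 0 called and 4, 3 and 8 at an unadjusted limma p under 0.05. The median difference over the list was -0.384 at 28 dpi and -0.358 at 42 dpi. From 14 to 28 dpi, when 43.0% of all genes were called, 6 of the 8 oligodendrocyte markers were lower and 0 higher, with a median difference of -0.342 over the list, and 3 of 11 microglial markers were lower and 0 higher (summed level 156.1 to 207 at 14 dpi, 128.5 to 180.2 at 28 dpi). Against sham, 2 of the 11 microglial markers were higher at 4 dpi, when 0.106% of all genes were called, with a median difference of 0.612 over the list. At 28 dpi 1 was higher, and 0 were lower at either time. At 14 dpi 0 were called, while all 11 differences were positive, with a median of 0.374 and 9 at an unadjusted limma p under 0.05. Of the 8 endothelial markers 2 were higher and 1 lower at 28 dpi, and the 8 pericyte and smooth muscle markers gave 0 calls by limma against sham at any time (5 of 40 comparisons had an unadjusted p under 0.05). Of 11 neuronal markers 1 was higher and 1 lower at 28 dpi, of 8 astrocyte markers 1 was higher and 3 lower, and of 11 fibroblast markers 1 was higher. The motor neuron, ependymal, Schwann cell, choroid plexus and pituitary lists had 0 calls against sham at any time, with 0, 0, 0, 1 and 6 comparisons at an unadjusted p under 0.05. Between 14 and 28 dpi the astrocyte list had 1 marker higher and 2 lower, the neuronal list 1 and 2, the endothelial list 2 and 1, the pericyte, fibroblast and choroid plexus lists 1 higher each, and the Schwann cell list its 1 measured gene, Pmp22, lower. The part of these cells in the values of Igf1r and Igfbp7 was tested only as a relation within groups. After subtraction of group means, 130 relations of the 10 genes with Rn18s-rs5 and 12 marker lists were computed over 29 animals, with 100000 permutations each. None had an adjusted p under 0.05, and 17 had an unadjusted p under 0.05. The strongest were those of the microglial list with Igf2r (Pearson r = -0.646, Spearman rho = -0.646, permutation p = 0.00204, adjusted p = 0.133, r = -0.623 without the 2 most distant animals) and with Igfbp5 (r = 0.577, rho = 0.633, permutation p = 0.00177, adjusted p = 0.133, r = 0.599 without them). With Rn18s-rs5 the coefficients ran from -0.253 for Igfbp3 to 0.304 for Igf1r (permutation p = 0.191, adjusted p = 0.517).

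Within groups, the receptors varied together, and Igf2r had a negative coefficient with each of the 6 binding proteins. As a description over 29 animals that share libraries and normalization, Pearson r was 0.456 between Igf1r and Igf2r, -0.597 between Igf2r and Igfbp7 and -0.516 between Igf1r and Igfbp3. Among binding proteins r was 0.475 between Igfbp4 and Igfbp7, 0.463 between Igfbp2 and Igfbp4 and 0.429 between Igfbp2 and Igfbp7. Igf1 was only loosely tied to the others, at 0.312 with Igf1r and 0.212 with Igf2.

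**Figure D5:**
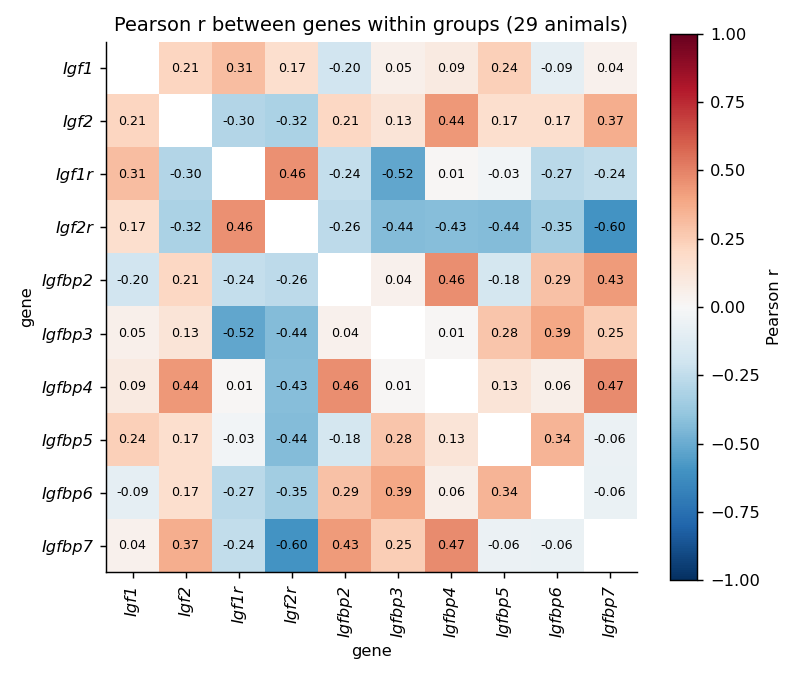
Pearson r between each pair of the 10 genes over 29 animals after subtraction of group means, on log2 values, with red for positive and blue for negative. Igf1r and Igf2r share a positive r (0.456), and the most negative value is that of Igf2r with Igfbp7 (-0.597).

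Among 11147 genes with a mean of at least 5 CPM, the 3 whose values were most like those of Igf1r within groups were Csmd2 (r = 0.883), Pcnx (0.877) and Soga1 (0.874) over 29 animals. For Igfbp2 they were Gipc1 (0.82), Aldh2 (0.819) and Cxcl14 (0.814), for Igf2r Focad (0.796), Zdhhc21 (0.775) and AI314180 (0.774), and for Igfbp7 Tmem80 (0.761), mt-Cytb (0.755) and Hmg20b (0.754). For the other 6 members the highest r was 0.8 for Igf1 (Homer2), 0.759 for Igf2 (Cenpq), 0.801 for Igfbp3 (Gpr180), 0.699 for Igfbp4 (Opalin), 0.694 for Igfbp5 (Laptm5) and 0.817 for Igfbp6 (Smg8). Laptm5 is a gene of microglia and other leukocytes and Opalin one of myelinating oligodendrocytes. No test was made of these likenesses, which were picked as the highest of many.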

How the data were processed

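Expression was measured by ribo-depleted, single-end RNA-seq of total RNA, 1 animal per sample, with a kit that marks no strand. The deposited values are treated as scores, since they are neither counts nor true CPM: the authors used SALMON and the mm10 mouse transcriptome, summed to genes, removed low genes and normalized with edgeR 3.14.0 (R 3.4.1) to CPM, which were rounded to 0.1 and whose column sums differ. Columns of the authors' own comparisons (fold changes and p-values against Ctrl) were not used. Raw counts were not used here, so depth is unknown and the spread between animals is the only measure of precision. Groups come from the labels.

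Values were analysed as log2(value + 0.5) in 1 limma 3.58.1 fit (R 4.3.3, eBayes with trend) over 29 animals and 6 groups, with Benjamini-Hochberg adjustment over 16995 genes, after the step had been tested on simulated data. Alternatives were another pseudocount, filter, scaling or variance model, a ribosomal RNA covariate, a length and GC correction, a random block for the unit in the animal names, and leaving out animals. Exon lengths are from GENCODE M21. The members and gene lists were chosen with earlier results of these data known. All members are named, and of each pathway list up to 6 genes called against sham with the smallest p, or else the 2 with the highest mean.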

Additional observations from a re-analysis of the deposited data

Results flagged for a closer look

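One animal stood apart from its group. Igfbp7 in animal A6-3 at 14 dpi was at 12.5 CPM, while the other 4 animals of that group were at 8.9 to 9.7 (gap over range 0.748, critical value 0.71). This was 1 of 60 groups examined, and chance flags about 1 in 20 groups. The step from 14 to 28 dpi, which follows a period without any called member, differed for 4 genes by the limma test of that step, with log2 differences of 0.605 for Igf1r, 0.274 for Igf2r, -0.42 for Igfbp2 and -0.638 for Igfbp7.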

How the results depend on the processing

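The number of members called against sham at 28 dpi (2) was 1 with a pseudocount of 1, with median centring, without the variance trend and with only the 2 groups compared. It was 0 with Rn18s-rs5 as a covariate, 5 after rescaling to the same sum, and 1 to 3 when 1 animal was left out. The 5 after rescaling were all lower (Igf2r -0.632, Igfbp2 -1.04, Igfbp3 -1.101, Igfbp4 -0.738 and Igfbp7 -1.145) and did not include Igf1r. With the 8 animals of high Rn18s-rs5 left out, where A4-1 alone stands for 28 dpi, Igf1r was at 0.388 and Igfbp7 at 0.15. Under these settings the call of Igfbp7 was the one that changed most often (limma adjusted p from 0.0507 with a pseudocount of 1 to 0.269 with the covariate), and the cause was not tested. The 4 calls from 14 to 28 dpi were 1 after rescaling, 2 with the length and GC correction, 1 with the 8 animals left out and 3 to 5 with 1 animal left out. With quantile normalization there were also 4, but Igfbp3 (-0.541, adjusted p = 0.0331) took the place of Igfbp2. From 28 to 42 dpi 0 to 1 members were called with 1 animal left out (Igf1r without A3-1). Over the 6 groups 2 members were called, 7 after rescaling, 1 with the covariate and 0 with the 8 animals left out. The choice to leave out those 8 was made after seeing the data, and it keeps 1 animal at 28 dpi, so it has little power.

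Rescaling reversed Igf1r (-0.355), Igf2r (-0.632) and Igfbp4 (-0.738) at 28 dpi, and turned the uncalled Igf1 (-0.533), Igf2 (-0.542), Igfbp5 (-0.491) and Igfbp6 (-0.294) negative too, around an all-gene median of -0.725. Relative to that median Igfbp6 (0.431), Igf1r (0.37), Igfbp5 (0.234), Igf1 (0.192), Igf2 (0.183) and Igf2r (0.093) were higher. Igfbp4 (-0.013), Igfbp2 (-0.315), Igfbp3 (-0.376) and Igfbp7 (-0.42) were lower. With the 7 ribosomal RNA genes left out of the sum, the all-gene median moved by -0.086, and Igf1r was at 0.337 and Igf2r at 0.058. Rescaling of the whole sum also reversed Insr (-0.371), Igf2bp3 (-0.276), Rptor (-0.488), Tsc2 (-0.485), Gsk3b (-0.503), Sos1 (-0.507), Irs2 (-0.561), Socs2 (-0.36) and Airn (-0.172). Leaving out the 8 animals reversed Igfbp7 at 28 dpi (0.15) and, from 14 to 28 dpi, Igfbp2 (0.031) and Igfbp7 (0.02). Of 50 differences of members from sham, 44 kept direction and side of the threshold, or stayed uncalled, in all settings, and of 14 other named genes 0 did. All other counts against sham were 0 throughout. No paired analysis was possible because the labels give the groups no shared replicate numbers. With the unit in the animal names as a random block (within-unit correlation -0.0441), 2 members were called at 28 dpi and 5 from 14 to 28 dpi. Unit A3 alone spans 2 times, with A3-1 and A3-3 at 28 dpi (Igf1r 67.0 and 98.3 CPM) and A3-4 at 42 dpi (77.0), and was not tested by itself. Depth is unknown, and low values such as those of Igfbp6 are limited by rounding.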
